A study of Homo sapiens with 3 samples.

Results

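Primary microcephaly is a congenital reduction of brain size that is most often caused by loss of proteins of the centrosome, the mitotic spindle, the kinetochore or mitotic chromosomes. The genes described here are 40 such genes, taken by symbol from a list that joins primary microcephaly genes with further centriole, spindle pole, kinetochore and condensin genes, out of 62754 genes in the deposited tables. All 40 symbols matched 1 gene each. Measured levels were not a criterion for choosing them, although earlier results of these data were known. By their main role they fall into 7 genes of centriole duplication, 11 of the centrosome, spindle pole and spindle assembly, 3 dynein regulators, 9 of the centromere, kinetochore and checkpoint, 4 of condensin and its control, and 6 other microcephaly genes. Of the 40, 19 are numbered primary microcephaly loci.

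The data are polyadenylated RNA libraries from 3 wild-type replicates of pNPCs. These primitive neural progenitor cells are a dividing precursor stage, made here from the established human embryonic stem cell line H1. All libraries belong to this 1 group, so no treatment or genotype was compared. The cells grew with N2 and B27 supplements, the growth factors FGF2 and hLIF, the small molecules CHIR99021 and SB431542, and the ROCK inhibitor Y-27632. All come from 1 cell line. Separate cultures are not named in the labels, so p-values measure the spread between these libraries, which may be technical.

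A dividing cell copies its centrioles once per cycle, when the kinase PLK4 recruits STIL and SASS6 to build a cartwheel on the parent centriole. The mature centrosome gathers pericentriolar material that nucleates microtubules, while kinetochores built on CENPA nucleosomes attach chromosomes to them and hold the checkpoint until every chromosome is attached. Condensin compacts the chromosomes. In the developing cortex, progenitors that lose these functions divide asymmetrically too early, delay in mitosis or die.

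The libraries held 30038114 to 38400092 expected counts, the estimated reads assigned to genes. TPM, used for levels below, is scaled for transcript length and library size. A gene is called detected at a TPM of at least 1 in all 3 libraries. Replicate 1 stood apart: between gene counts of library pairs, chi-square divided by its degrees of freedom was 82.4 and 82.5 with replicate 1 and 19.4 for replicates 2 and 3. Of 7 neural progenitor markers 5 were detected, with SOX2 at 69.2 ± 26.2 TPM (SD, n = 3) but PAX6 at 0.44 ± 0.34 TPM. The summed level of 6 mesenchyme markers, all detected, was 567, 1250 and 886 TPM in replicates 1, 2 and 3. That of 6 neuron markers, all detected, was 547, 381 and 392 TPM, of which TUBB3 alone held 478, 324 and 323 TPM. All 4 neural crest markers were detected, led by TFAP2B at 58.9 ± 7.14 and TFAP2A at 56.7 ± 15.1 TPM. Microglia markers (0 of 4) and endothelium markers (0 of 3) were not detected. Of 4 pluripotency markers POU5F1 and NANOG were at 0.11 and 0.02 TPM and TDGF1 at 0, while DPPA4 was detected with 18.6, 21.0 and 26.4 TPM.

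Promoter windows were read to see which letters associated with cell-cycle transcription the members share. CCAAT is the core of the NF-Y site, TTTGAA is the cell cycle genes homology region bound by the DREAM and MuvB complexes, and the E2F core was searched as TTGGCGC, with TTCCCGC as a further form, then TTGCCGC, and finally the form TTCGCGC. Each was searched on both strands of 300-base RefSeq windows (GRCh38.p14), which run from 250 bases before to 50 after a gene start. Windows were found for 35 members (45 windows, since some genes have several starts). Windows of the same gene can overlap, as for AURKB, so a match can count more than once. The 3 members below are all those with both CCAAT and TTTGAA in a window with at most 30 annotated exon bases in the printed part. PAFAH1B1 has the highest mean TPM among members whose windows hold neither. Capitals mark CCAAT and TTTGAA or their reverse complements in the 250 bases before the start, 5′ to 3′ on the gene's strand.
CENPF: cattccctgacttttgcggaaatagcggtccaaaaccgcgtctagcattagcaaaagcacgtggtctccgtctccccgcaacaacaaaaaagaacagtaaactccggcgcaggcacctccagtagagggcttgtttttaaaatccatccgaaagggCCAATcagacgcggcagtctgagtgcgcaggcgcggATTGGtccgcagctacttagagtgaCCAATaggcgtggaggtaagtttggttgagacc
ASPM: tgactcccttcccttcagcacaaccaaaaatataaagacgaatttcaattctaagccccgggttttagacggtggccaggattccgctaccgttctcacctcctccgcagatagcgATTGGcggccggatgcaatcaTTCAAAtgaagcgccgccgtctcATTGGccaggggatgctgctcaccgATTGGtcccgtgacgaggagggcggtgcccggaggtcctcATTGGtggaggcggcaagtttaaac
CIT: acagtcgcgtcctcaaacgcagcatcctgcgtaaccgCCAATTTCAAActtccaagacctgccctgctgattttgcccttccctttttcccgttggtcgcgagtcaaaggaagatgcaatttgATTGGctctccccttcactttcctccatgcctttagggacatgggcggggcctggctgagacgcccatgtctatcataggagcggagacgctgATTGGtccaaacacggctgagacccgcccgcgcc
PAFAH1B1: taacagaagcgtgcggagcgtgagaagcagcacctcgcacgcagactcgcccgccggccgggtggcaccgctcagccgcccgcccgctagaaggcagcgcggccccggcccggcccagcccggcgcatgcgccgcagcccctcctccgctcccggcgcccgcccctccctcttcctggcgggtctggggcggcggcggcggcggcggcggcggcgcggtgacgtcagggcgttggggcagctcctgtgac

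These stretches lie at chr1:214602945-214603194 (plus strand), chr1:197146670-197146919 (minus), chr12:119877321-119877570 (minus) and chr17:2593404-2593653 (plus). The CENPF window held 4 CCAAT matches, at -94, -58, -33 and 13 from the start, and the matches at 13 and 41 (TTTGAA) lie past the printed part. The ASPM window held 4 CCAAT matches and 1 TTTGAA match at -113, and the CIT window held 3 and 2, of which a TTTGAA match at 11 lies past the printed part. The PLK1 window, not printed, had CCAAT at -73 and TTTGAA at -29. BUB1B had TTTGAA at -23 and CENPA at -18. TTTGAA was found in 17 of the 45 member windows, against 15.2% of all 35116 windows in the table, and CCAAT in 22 against 34.6%. Both were in 10 member windows, against 5.9% of all. The E2F core was in 14 member windows against 13.0%, and 7 of these 14 were among the 10 windows of the centriole duplication genes (6 of 7 genes). A closer comparison is the 14869 windows of detected protein-coding genes. There the shares were 10.4% for TTTGAA, 34.7% for CCAAT, 4.1% for both and 19.3% for the E2F core. Levels did not follow all motifs alike. Members with an E2F core had a median mean TPM of 29.5 (13 genes) and those without it 54.8 (22 genes). Of the 13, 6 are centriole duplication genes, and over detected protein-coding genes the order was the other way, 24.96 with and 21.0 without. Members with and without CCAAT had 36.5 (20 genes) and 39.4 (15 genes), and members with and without TTTGAA had 39.8 (17 genes) and 37.1 (18 genes). These are matches of letters only, and binding was not measured.

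All 40 members were detected, against 62.2% of protein-coding genes, and the lowest value of any of them in any library was 6.40 TPM (CDK19, replicate 1). Over the list the median TPM was 28.4, 38.8 and 43.2 in replicates 1, 2 and 3, and that of the 12354 detected protein-coding genes was 18.7, 21.8 and 22.3. The mean TPM of 29 members lay above the median of detected protein-coding genes, and it was at least 100 TPM for 6. These were CENPF, AURKB, NUMA1, TPX2, PLK1 and NCAPD2, of the kinetochore, the spindle and condensin. The 3 lowest were CEP152, CDK19 and ZNF335. The median of the centriole duplication genes (21.5 ± 7.39 TPM, SD, n = 3) was below that of the kinetochore genes (67.1 ± 7.28 TPM) in each library. In bulk RNA, fewer dividing cells and less RNA per cell cannot be told apart.

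**Figure D1:**
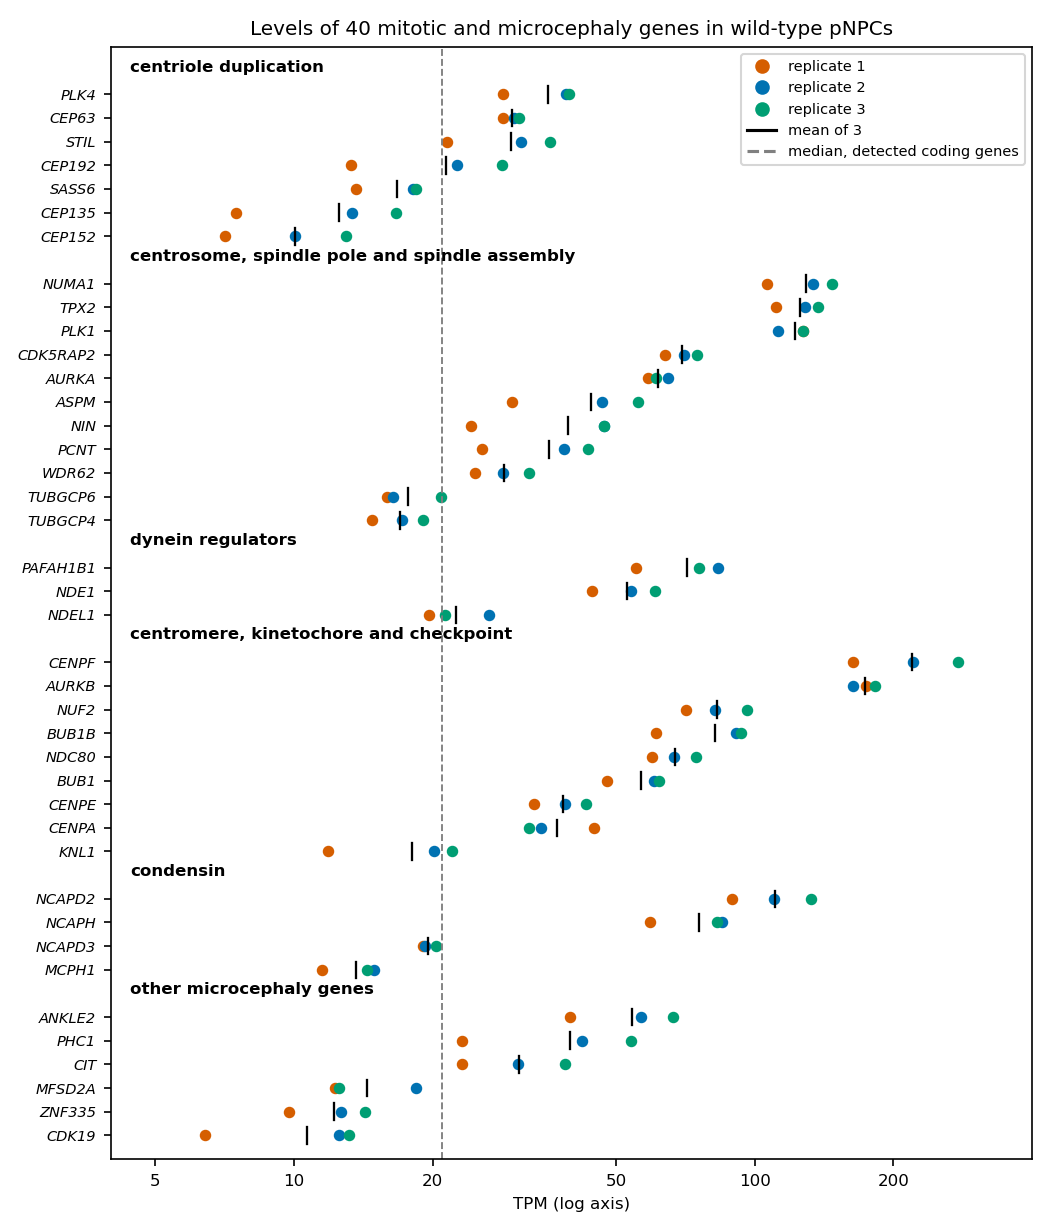
TPM (log axis) of each member in the 3 libraries (coloured points) with the mean of the 3 (black bar), grouped by role, and the median over libraries of detected protein-coding genes (dashed line, 20.9 TPM). Replicate 1 is the lowest of the 3 points for 37 of the 40 genes, and the kinetochore, spindle and condensin groups reach past 100 TPM while no centriole duplication gene does.

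Centriole duplication genes were present at low to middle levels. PLK4 (chromosome 4, 127880893 to 127899224), the kinase that starts a new centriole, had 28.5, 38.9 and 39.6 TPM in replicates 1, 2 and 3. STIL (chromosome 1, 47250139 to 47314896), which binds PLK4, had 21.5, 31.0 and 36.0 TPM. SASS6, the cartwheel protein, had 13.7, 18.1 and 18.4 TPM. All 7 genes of this group had their lowest TPM in replicate 1 and their highest in replicate 3. CEP152 and CEP192, scaffolds that place PLK4 at the centriole, had 7.07, 10.0 and 13.0 TPM and 13.3, 22.6 and 28.3 TPM. CEP135, a centriole wall protein, had 7.48, 13.4 and 16.6 TPM. CEP63, a partner of CEP152, was the steadiest of the group, with 28.4, 29.99 and 30.8 TPM (coefficient of variation 4.2%). Its exons overlap those of ANAPC13 on the opposite strand. Whether counting used strand is not known here, so the value is uncertain, as for the other overlapping genes named below.

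The centrosome and spindle group was led by genes of spindle assembly. NUMA1 (chromosome 11, 72002864 to 72080542), which gathers microtubules at the pole and orients the spindle, had 106, 134 and 147 TPM. TPX2, which nucleates spindle microtubules and activates AURKA, had 111, 129 and 137 TPM. PLK1, the main mitotic polo-like kinase, had 127, 112 and 127 TPM, and here replicate 2 was the lowest. The kinase AURKA (chromosome 20, 56369390 to 56392215) was nearly level, at 58.7, 64.8 and 61.1 TPM. The pericentriolar scaffold genes CDK5RAP2 and PCNT followed at 69.6 ± 5.45 and 35.8 ± 9.21 TPM (SD, n = 3), and NIN, a microtubule anchor of the mother centriole, at 39.4 ± 13.2 TPM.

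ASPM (chromosome 1, 197084127 to 197146669) and WDR62 (chromosome 19, 36054897 to 36111145), spindle pole proteins and the genes most often mutated in primary microcephaly, stood in the middle of the range. ASPM had 29.7, 46.7 and 55.8 TPM, with replicate 1 well below the others. WDR62 had 24.8, 28.5 and 32.4 TPM. The gamma-tubulin ring complex genes TUBGCP4 and TUBGCP6 were the lowest of the group at 17.0 ± 2.15 and 17.7 ± 2.74 TPM, levels that overlapped. Exons of NUMA1, PLK1 and TUBGCP4 overlap other coding genes on the opposite strand.

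Dynein regulators were at middle levels. PAFAH1B1, which encodes the dynein cofactor LIS1 and is mutated in lissencephaly, had 55.2, 83.3 and 75.6 TPM. Its partner NDE1 (chromosome 16, 15643382 to 15726353) had 44.4, 53.8 and 60.6 TPM, and the paralog NDEL1 had 19.6, 26.5 and 21.3 TPM. The NDE1 values of all libraries lay above those of NDEL1. NDE1 exons overlap MYH11 and NDEL1 exons overlap MYH10, each on the opposite strand.

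Kinetochore genes reached the highest levels of the list. CENPF (chromosome 1, 214603195 to 214664571), a large protein of the outer kinetochore and nuclear envelope, had 164, 221 and 276 TPM and 23272, 39489 and 37565 expected counts. AURKB (chromosome 17, 8204731 to 8210575), the kinase that corrects wrong attachments, had 175, 164 and 183 TPM. The CENPF range was wide and that of AURKB narrow, and the ranges overlapped. NUF2 and NDC80, which form the microtubule-binding arm of the Ndc80 complex, had 83.0 ± 12.7 and 67.1 ± 7.28 TPM (SD, n = 3). The checkpoint genes BUB1B and BUB1 had 81.9 ± 18.0 and 56.7 ± 7.74 TPM, and part of the BUB1B annotation is shared with the read-through gene BUB1B-PAK6. CENPE, a kinetochore motor, had 33.1, 38.7 and 43.1 TPM.

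The centromeric histone gene CENPA (chromosome 2, 26786056 to 26794589) ran the other way from most of the list. It had 44.7, 34.3 and 32.4 TPM, highest in replicate 1. Its exons overlap those of SLC35F6 on the same strand. KNL1 (chromosome 15, 40594249 to 40664342), the kinetochore scaffold that docks BUB1 and BUB1B, was the lowest kinetochore gene, with 11.8, 20.2 and 22.0 TPM.

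The 4 condensin genes of the list spanned a wide range. NCAPD2 (chromosome 12, 6494102 to 6531955) and NCAPH, subunits of condensin I, had 89.1, 110 and 132 TPM and 59.3, 85.1 and 82.7 TPM. NCAPD3 (chromosome 11, 134150113 to 134225461), the matching subunit of condensin II, had 19.1, 19.2 and 20.3 TPM. MCPH1, which restrains condensin II before mitosis, had 11.5, 14.9 and 14.4 TPM. NCAPD2 and NCAPH lay above NCAPD3 and MCPH1 in every library. This order is not one of whole complexes, since the further condensin II gene NCAPH2 (chosen with its level in view) had 59.8, 62.0 and 62.4 TPM, above NCAPH in replicate 1. Exons of NCAPD2, NCAPD3 and MCPH1 overlap coding genes on the opposite strand.

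The other microcephaly genes act outside the centrosome. ANKLE2, which helps to rebuild the nuclear envelope after mitosis, had 39.7, 56.7 and 66.4 TPM. PHC1, a polycomb protein, had 23.2, 42.2 and 54.0 TPM and the largest coefficient of variation of the 40, 39.0%. Its counts were not whole numbers in any library, so part of its reads were shared out between genes, and its exons overlap M6PR on the opposite strand. Counts of CEP63, NUMA1, TUBGCP4, TUBGCP6, NDE1, NCAPD2, NCAPD3 and MCPH1 were likewise not whole in any library. CIT, a kinase of cytokinesis, had 23.2, 30.6 and 38.8 TPM. ZNF335, a zinc finger of a histone methylation complex, and CDK19, a Mediator kinase, had 12.2 ± 2.28 and 10.7 ± 3.72 TPM (SD, n = 3). MFSD2A, a lipid transporter best known from the blood-brain barrier, had 12.2, 18.4 and 12.5 TPM. It rests on the fewest reads of the list, 563, 762 and 425 expected counts, and the smallest of these has an exact Poisson 95% interval of 386 to 467, for counting error only.

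Levels of partners and paralogs were compared within each library in 12 pairs, as the difference of log2(TPM + 1). NCAPD2 exceeded NCAPD3 by 2.42 ± 0.24 (SD, n = 3), a ratio of 4.67, 5.72 and 6.53 in replicates 1, 2 and 3. PLK1 exceeded PLK4 by 1.76 ± 0.32, and NDE1 exceeded NDEL1 by 1.1999 ± 0.24. CENPE differed from CENPF by -2.47 ± 0.19, and CEP152 from CEP63 by -1.51 ± 0.34. The kinase AURKA differed from its paralog AURKB by -1.48 ± 0.14. In these 6 pairs the difference was over 1 log2 unit and larger than its spread between libraries. TPM is per length, and in CPM with no length scaling 3 of the 6 fell under 1, with AURKA against AURKB at -0.45, NDE1 against NDEL1 at 0.38 and CEP152 against CEP63 at -0.30.

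Smaller differences separated CDK5RAP2 from PCNT (0.97 ± 0.28, SD, n = 3), STIL from SASS6 (0.77 ± 0.16) and ASPM from WDR62 (0.57 ± 0.28, or 2.32 in CPM). BUB1 differed from BUB1B by -0.51 ± 0.14 and NDC80 from NUF2 by -0.30 ± 0.06, so partners of the Ndc80 complex were the nearest pair with 1 sign throughout. TUBGCP4 differed from TUBGCP6 by -0.05 ± 0.10, within the spread, with 1 library positive. The sign was the same in all libraries for 11 of the 12 pairs. Each of these gave p = 0.25 in the exact two-sided sign-flip permutation test, the smallest that n = 3 allows (Benjamini-Hochberg adjusted over the 12 pairs, 0.273), so none could reach 0.05. For TUBGCP4 and TUBGCP6 the exact permutation p was 0.5 (n = 3).

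**Figure D2:**
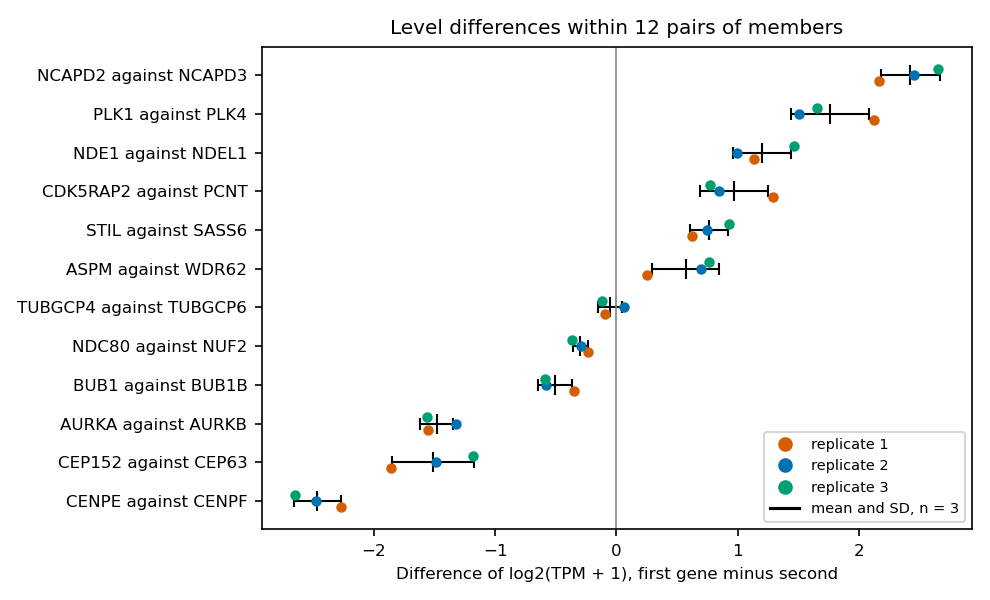
Difference of log2(TPM + 1), first gene minus second, for 12 pairs of members in each library (coloured points), with mean and SD over the 3 libraries (black). NCAPD2 against NCAPD3 (2.42) and CENPE against CENPF (-2.47) lie at the ends, and the TUBGCP4 pair is the only one whose points fall on both sides of 0.

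Between libraries the members were mostly lowest in replicate 1. Their TPM was lowest there for 37 of the 40, against 57.3% of detected protein-coding genes, and highest in replicate 3 for 31, against 41.0%. The exceptions to the first were PLK1, AURKB and CENPA. In log2 CPM, which is scaled for library size but not for length, the median member in replicate 1 lay -0.28 from the mean of the other libraries, where the median over all 17046 genes tested was -0.01. The median member lay 0.12 and 0.20 above the other libraries in replicates 2 and 3. Further gene lists, described below, did not all share the low replicate 1. Their median there was 0.04 for kinetochore and checkpoint genes, 0.14 for dynein genes and 0.07 for multiciliated cell genes. It was -0.15 for primary microcephaly genes, -0.13 for condensin subunits and -0.21 for centriole and gamma-tubulin genes. For spindle and cytokinesis genes it was -0.22, and for close relatives of members -0.23. Mesenchyme markers (median -0.78), neuron markers (0.85) and neural progenitor markers (0.59) also deviated in replicate 1. The last 2 lists were split: MAP2 (-0.27), SNAP25 (-0.12) and NES (-0.16) went the other way. VIM (0.16) and MSI1 (0.17) moved little. Of these markers COL1A1, STMN2 and HES5 passed the edgeR spread test described below, with adjusted p of 0.0106, 0.00388 and 0.0128. HES5 does not count as detected, with 0.72 TPM in replicate 2. The part of these marker lists in the members' deviation was not tested.

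The deviation of replicate 1 went with transcript length. The 19 members with a mean estimated length of at least 4000 bases were all below 0, with a median of -0.74, and the 21 shorter ones had a median of -0.15, with 16 below 0. Across the 40 members Pearson's r of log2 length with the deviation was -0.70 and Spearman's rho -0.69, as a description of genes that share the same libraries. Over 17014 genes tested r was -0.41. In all genes tested the median deviation fell from 0.28 under 1000 bases to -0.60 from 6000 bases on, and 90.7% of detected protein-coding genes of the longest class had their lowest TPM in replicate 1. In each length class that held members, the median member lay below the median of all genes tested. It was 0.05 against 0.16 at 1000 to 2000 bases (6 members) and -0.38 against -0.25 at 4000 to 5000 bases (9 members). From 6000 bases on it was -0.95 against -0.60 (4 members). The source of this offset was not tested.

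**Figure D3:**
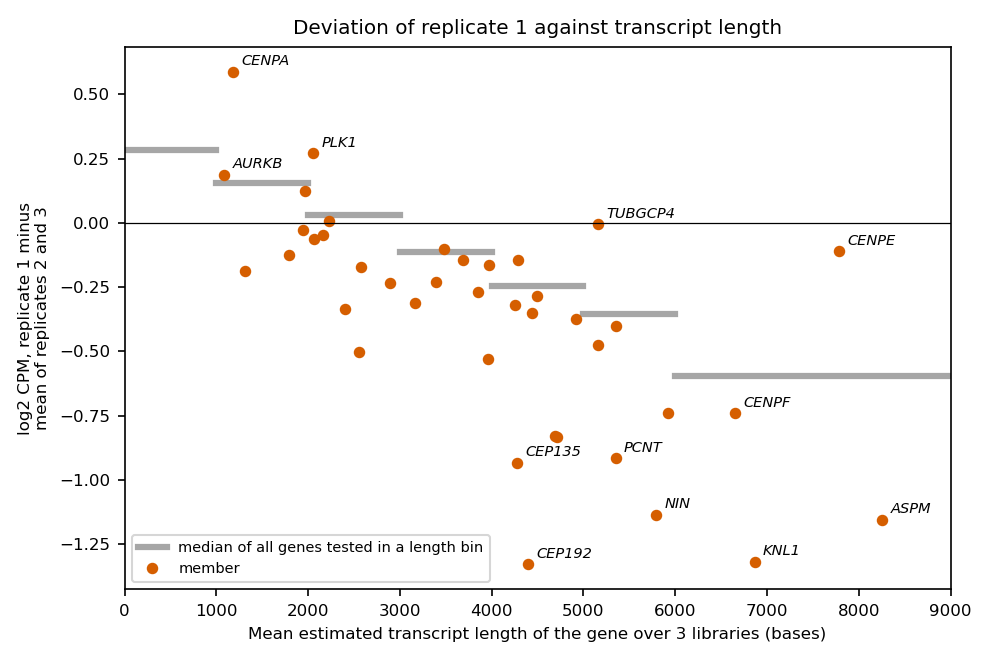
Deviation of replicate 1 (log2 CPM, replicate 1 minus the mean of replicates 2 and 3) against the mean estimated transcript length of each member in bases (points), with the median of all genes tested per length bin (grey bars). Long members such as KNL1 (-1.32), CEP192 (-1.33) and ASPM (-1.15) lie lowest, while CENPA (0.59), a short gene, lies highest.

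Only KNL1 and CEP192 spread more between libraries than the trend of all genes at their level (edgeR residual deviance test, Benjamini-Hochberg adjusted p = 0.0358 and 0.0391). These are 2 of 40 members, against 1.55% of all genes tested. KNL1 had 1464, 3746 and 3499 expected counts and CEP192 1079, 2896 and 2498, so both were low in replicate 1. With a smooth trend on effective length removed in each library, the edgeR adjusted p was 0.215 for KNL1 and 0.0211 for CEP192. Only the latter call then remained (1.73% of all genes). Without any 1 of the libraries no member was called by edgeR (0 of 40), where 0.669%, 0.557% and 0.546% of all genes were called without replicates 1, 2 and 3. So few genes were called in these fits that the count says little about the members. At an unadjusted p under 0.05 there were then 0, 7 and 6 members, against 5.26%, 5.75% and 6.14% of all genes. ASPM, NIN and PCNT followed without passing, with adjusted p of 0.121, 0.149 and 0.415 by edgeR and deviations of -1.15, -1.13 and -0.92 in replicate 1.

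RSEM also reports for each gene and library an estimated length, weighted by the transcripts to which it assigned the reads. It differed over 1.2-fold between libraries for 9 members, against 15.6% of detected protein-coding genes. In all 9 it was shortest in replicate 1, against 42.5% of the protein-coding genes past the same limit. KNL1 had 5092, 7398 and 8104 bases, ASPM 6472, 9181 and 9106 bases, and CEP192 3406, 5179 and 4618 bases. TPM divides by this length, so it lowers the contrast seen in counts. The KNL1 level was 1.86 times higher in its highest than in its lowest library on the TPM scale. NCAPD3 had 4252, 6172 and 5642 bases, in replicates 2 and 3 above its longest coding transcript in GENCODE release 29 (5061 bases). Its TPM hardly moved (coefficient of variation 3.37%) although its log2 CPM was -0.40 from the other libraries in replicate 1. CENPE, at 7972, 7580 and 7815 bases one of the longest members, did not share this: its length was steady and its deviation in replicate 1 was -0.11.

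**Figure D4:**
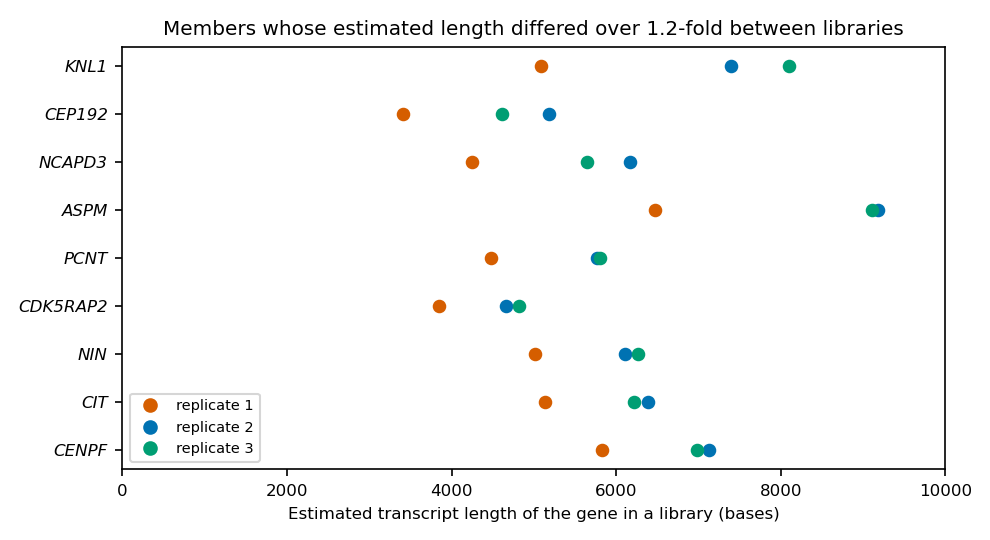
Estimated transcript length in bases, per library (coloured points), of the 9 members for which it differed over 1.2-fold between libraries. Replicate 1 has the shortest length for each of the 9, from 3406 bases for CEP192 to 6472 for ASPM.

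The rest of the machinery was present as well. All 23 further kinetochore and checkpoint genes were detected, led by the checkpoint target CDC20 at 232 ± 17.5 TPM (SD, n = 3) and PMF1 of the Mis12 complex at 200.4 ± 3.49 TPM. All 5 further condensin subunits were detected, led by the shared ATPase SMC4 at 164 ± 25.2 TPM and the condensin I gene NCAPG at 64.5 ± 8.56 TPM. The condensin II genes NCAPH2 and NCAPG2, also named after their values were seen, had 61.4 ± 1.40 and 41.4 ± 7.87 TPM. Of the 17 further centriole and gamma-tubulin genes all were detected, with PCM1 of the centriolar satellites at 111 ± 27.4 TPM and the gamma-tubulin gene TUBG1 at 101 ± 3.56 TPM. The 12 spindle and cytokinesis genes were all detected, with the kinesin gene KIF2C at 155 ± 9.80 TPM and PRC1 of the midzone at 134 ± 10.8 TPM.

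Of 86 genes tested in the 8 further gene lists 2 passed the edgeR spread test, WDFY3 and DYNC1H1, a share near the 1.55% of all genes. All 11 further primary microcephaly genes were detected. The lamin genes LMNB1 and LMNB2 led with 285 ± 42.7 and 147 ± 12.1 TPM (SD, n = 3). WDFY3, an autophagy scaffold, passed the spread test (edgeR adjusted p = 0.00102) with 4.14, 13.9 and 16.4 TPM, again lowest in replicate 1. Of 10 genes of the dynein motor and its partners 9 were detected, led by PAFAH1B3, a catalytic partner of LIS1 in an acetylhydrolase, at 171 ± 20.0 TPM and by the dynein heavy chain DYNC1H1. The latter had 118, 170 and 201 TPM (edgeR adjusted p = 0.0123), and the intermediate chain gene DYNC1I1 was not detected, with 0.32, 1.54 and 0.65 TPM.

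Relatives of members ranged widely in level. Of 10 close relatives of members 6 were detected, led by the polycomb gene PHC2 at 195 ± 3.49 TPM, several times the level of PHC1, and PLK2 at 37.0 ± 9.32 TPM. PLK5 at 0.11 ± 0.05, the MFSD2A relative MFSD2B at 0.26 ± 0.17 and DEUP1 at 0.33 ± 0.21 TPM were not detected. AURKC, the aurora kinase of germ cells, named after its values were seen, was not detected at 0.57 ± 0.23 TPM, against 61.5 ± 3.05 for AURKA and 174 ± 9.41 for AURKB. DEUP1, a relative of CEP63, builds deuterosomes in multiciliated cells. Of 6 genes of centriole amplification in such cells only the ciliary factor FOXJ1 was detected, at 10.7 ± 1.16 TPM, while CCNO was at 0.51 ± 0.10, MCIDAS at 0.14 ± 0.08, GMNC at 0.09 ± 0.13 and CDC20B at 0.07 ± 0.06 TPM.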

How the data were processed

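RNA-seq tables of 3 libraries from 1 group were used, grouped by the sample titles. RSEM 1.3.1, STAR 2.7.11a, Trim Galore 0.6.10 and GRCh38 appear in the submitters' processing notes, without their roles. Neither notes nor labels state strandedness or annotation release. For each gene, per the file headers, the authors deposited an expected count (an estimate, not normalized), TPM, FPKM and an estimated length; FPKM, scaled by the authors for length and reads, served only as an alternative. The members, lists and tests were chosen with earlier results of these data known. All members may be named. The further pathway lists name their 2 highest genes, up to 3 undetected ones and those passing the spread test. Besides these, AURKC, NCAPH2 and NCAPG2 were named after their values were seen.

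For the test of spread, expected counts were rounded to integers, scaled by TMM and filtered with filterByExpr (edgeR 4.0.16, R 4.3.3, with limma 3.58.1). The residual deviance of an intercept-only fit at the trended dispersion was compared with a chi-square on 2 degrees of freedom, with Benjamini-Hochberg adjustment over 17046 genes at a threshold of 0.05. Tested on simulated data (16790 genes tested), the share recovered was 8% at 2-fold, 64% at 4-fold, 90% at 8-fold and 98% at 16-fold changes in 1 library, with 1 unchanged gene called. Deviations use log2 CPM with a prior count of 2. The length trend was a lowess fit (span 0.3) on effective length. Pair differences used a pseudocount of 1, which understates differences of low genes. Alternatives used DESeq2 1.42.0, other scalings, filters, pseudocounts and leaving out each library.

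Gene types, exon overlaps and exon bases came from GENCODE release 29, which matched 92.8% of identifiers; coordinates and promoters came from RefSeq (GRCh38.p14). Printed promoters were limited to windows with few exon bases after the matches were seen. Tables were handled with Python 3.11.15, pandas 2.3.3, numpy 2.4.6 and scipy 1.17.1, and figures with matplotlib 3.10.9.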

Additional observations from a re-analysis of the deposited data

How the results depend on the processing

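All 40 members stayed detected at TPM minimums of 0.5 and 5, with FPKM and without each replicate. Of the 72 alternative values for pairs 71 kept their sign, and TUBGCP4 against TUBGCP6 turned to 0.22 in CPM with no length scaling. The count of members with excess spread, 2 in edgeR with TMM, was 1 with DESeq2 size factors and dispersions (KNL1), 1 with the length trend removed (CEP192) and 0 without each of the replicates. The cause was not tested. It remained 2 with RLE scaling and with no filter. The median member deviation in replicate 2 turned from 0.12 to -0.0155 with the length trend removed. That in replicate 1 went from -0.28 to -0.07, and that in replicate 3 from 0.20 to 0.02. These shifts are overstated, because the removal took more from the deviations than the trend. CENPE went from -0.07 to -0.53 in replicate 2, where the median of all genes of at least 6000 bases was 0.23. In replicate 3 CENPE went from 0.18 to -0.55, where that median was 0.36. Whether the sign in replicate 2 would turn with only the trend removed was not tested. In CPM with no length scaling AURKA minus AURKB went from -1.48 to -0.45, NDE1 minus NDEL1 to 0.38, CEP152 minus CEP63 to -0.30, ASPM minus WDR62 to 2.32, NDC80 minus NUF2 to -0.06 and BUB1 minus BUB1B to -0.26. Over 3 alternatives chosen after seeing the data, the median member level, 36.8 TPM, was 41.02 TPM without replicate 1, 35.8 without replicate 2 and 33.6 without replicate 3. No paired analysis was possible because there is 1 group. Depth did not limit detection, since the fewest counts of a member in a library were 425, but with 3 libraries the spread test recovered few 2-fold changes.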

Other observations

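Among members of similar length the deviation of replicate 1 was not uniform. CENPE, with a mean estimated length of 7789 bases, deviated by -0.11 log2 CPM where the median of all genes of at least 6000 bases was -0.60. TUBGCP4, at 5479, 4741 and 5264 bases, deviated by -0.0046, against -0.36 for all genes of 5000 to 6000 bases. CEP192 lay at the other end, with -1.33 against -0.25 for all genes of 4000 to 5000 bases.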
